A study of Mus musculus with 6 samples.

Results

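Transcript levels of Cyp1b1 and the genes of the aryl hydrocarbon receptor pathway were compared between mouse ovarian surface epithelial cells, which cover the ovary, sorted for high EGFP and those sorted for low EGFP. The set held 9 genes, taken as every probe set whose single gene symbol was Cyp1b1, Cyp1a1, Cyp1a2, Ahr, Ahrr, Arnt, Arnt2, Tiparp or Nqo1. All 9 were measured, on 10 of the 41345 probe sets, among 22180 named genes. Cyp1b1 was picked because its difference between the populations was among the most negative of all genes, so that difference is described here without a test, and the question was whether other genes of the receptor's pathway differed the same way. Ranked by difference, Cyp1b1 was gene 23 of 22180. Its neighbours in that ranking were Gsg1l at −1.74 and Jakmip3 at −1.72 on the log2 scale.

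Both populations came from females, 8 to 12 weeks old and untreated, of the genotype Lgr5-eGFP-CreERT2, in which EGFP and a tamoxifen-inducible Cre recombinase are driven by Lgr5, a receptor gene that marks stem cells in several epithelia. Cells were sorted into those with high EGFP (3 arrays) and those with low EGFP (3 arrays). The low population carried the same alleles and was labelled as expressing EGFP at a low level, not as lacking it. Material of 8 mice was pooled for each array, and the design text calls the 3 arrays of a population technical replicates, so error terms measure the spread between arrays and not between animals.

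The 6 columns of log2 values were not independent. The column of high 2 was the average of those of high 1 and high 3, and low replicate 1 was an exact combination of low 2, low 3, high 1 and high 3, which leaves 4 independent dimensions; a fit with group alone treats them as 6. Each difference of means therefore also equals high 3 minus low 1, and the standard deviation of the 3 high arrays rests on 2 readings. These relations are those left when 3 sets of arrays are levelled: the first of high 1 and low 1, the second of high 3, low 2 and low 3, and the last of high 2 by itself. A fit with these inferred array sets as a term called 1 of 22180 genes (percent called 0.00451), and a fit with group alone called 1479 (6.67%), 865 higher (3.9%) and 614 lower (2.77%). With each array centred on its median the fit with group alone called 1481 higher and 474 lower. Lgr5, which drives the EGFP used for the sort, averaged 8.97 in EGFP-high and 7.87 in EGFP-low cells. That is a difference of 1.10 on its brighter probe set, and its other probe set differed by 1.48. Markers of the surface epithelium were present in both populations, with a summed linear signal of 15 genes from 12680.9 to 13090.1 in EGFP-high arrays and from 10646.8 to 10983.5 in EGFP-low arrays.

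The aryl hydrocarbon receptor, encoded by Ahr, is a ligand-activated transcription factor of the basic helix-loop-helix PAS family that rests in the cytosol with chaperones. On binding a ligand, such as a dioxin, a polycyclic hydrocarbon or a tryptophan metabolite, it enters the nucleus, pairs with ARNT and binds a short element that contains GCGTG. Cyp1a1, Cyp1a2 and Cyp1b1, the cytochrome P450 genes of the CYP1 family, are its classical targets. CYP1B1 oxidises polycyclic hydrocarbons and converts estradiol to catechol estrogens, and is known from the steroid-producing and stromal cells of the ovary and other organs.

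The stretch before the start site is shown for 5 target genes, of which all but Nqo1 held the receptor's core motif. The mean difference was negative for Cyp1b1 and above 0 for the others, and the readings of Cyp1a1 and Ahrr overlapped between the populations. Cyp1a2, also a target, had no core in its window, which is not printed. Whether the motif goes with the difference was not tested. Sequences are the 250 bases before the annotated start, from RefSeq on GRCm38.p6, 5′ to 3′ on the strand of the gene, with GCGTG or its reverse complement CACGC in capitals. The windows are chr17:79715062-79715311 (minus strand) for Cyp1b1, chr9:57697363-57697612 (plus strand) for Cyp1a1, chr13:74292332-74292581 (minus strand) for Ahrr, chr3:65528197-65528446 (plus strand) for Tiparp and chr8:107403206-107403455 (minus strand) for Nqo1.
Cyp1b1: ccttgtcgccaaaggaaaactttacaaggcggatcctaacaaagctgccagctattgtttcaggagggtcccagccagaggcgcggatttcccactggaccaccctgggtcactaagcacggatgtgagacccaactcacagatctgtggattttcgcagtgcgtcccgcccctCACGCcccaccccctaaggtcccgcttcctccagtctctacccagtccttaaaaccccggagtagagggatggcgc
Cyp1a1: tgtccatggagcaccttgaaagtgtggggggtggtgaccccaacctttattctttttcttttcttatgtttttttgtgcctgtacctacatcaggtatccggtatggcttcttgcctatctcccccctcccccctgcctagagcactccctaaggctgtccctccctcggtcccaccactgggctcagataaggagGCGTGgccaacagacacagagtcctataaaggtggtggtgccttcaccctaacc
Ahrr: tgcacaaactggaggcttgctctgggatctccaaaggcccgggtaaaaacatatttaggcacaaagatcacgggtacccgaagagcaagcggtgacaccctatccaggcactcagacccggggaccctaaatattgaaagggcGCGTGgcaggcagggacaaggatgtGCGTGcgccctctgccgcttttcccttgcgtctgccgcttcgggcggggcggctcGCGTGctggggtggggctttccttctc
Tiparp: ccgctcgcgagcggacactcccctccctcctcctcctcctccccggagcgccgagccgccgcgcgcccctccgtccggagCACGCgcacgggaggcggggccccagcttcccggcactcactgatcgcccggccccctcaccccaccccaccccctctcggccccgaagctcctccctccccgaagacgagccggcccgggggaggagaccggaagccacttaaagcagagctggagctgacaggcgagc
Nqo1: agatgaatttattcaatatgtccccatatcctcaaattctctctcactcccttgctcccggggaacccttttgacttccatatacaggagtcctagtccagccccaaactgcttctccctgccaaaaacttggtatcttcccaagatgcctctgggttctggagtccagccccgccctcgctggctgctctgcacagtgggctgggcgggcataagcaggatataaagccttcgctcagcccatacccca
The Cyp1b1 window held 1 core on the reverse strand, starting 76 bases before the start site, and the Cyp1a1 window 1 core on the forward strand at 54 bases. Ahrr held 3 forward cores, at 107, 82 and 27 bases, and Tiparp 1 reverse core at 170 bases. The Nqo1 window held none. Of the 9 genes, 8 matched a window (all but Ahr), and 5 of the 8 windows held the core on either strand (the fifth was that of Arnt), against 28.2% of 32851 promoter windows of the same length. Those windows leave out 1 chromosome and were not matched for GC content, which ran from 47.2% (Cyp1a2) to 75.6% (Arnt2) in the 8. Enrichment of the core was not tested. The longer form TNGCGTG, which includes the core, was in the Ahrr window alone among the 8 and in 4.1% of all windows. The core shares 4 letters with ACGTG, the other core bound by dimers of ARNT with hypoxia-inducible factors, and ACGTG was on neither strand of the 8 windows and in 16.6% of all windows. A match describes letters in a window and not binding, and the best-studied elements of Cyp1a1 lie farther upstream.

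Cyp1b1 read lower in EGFP-high cells than in EGFP-low cells, while none of the 5 other targets among the 9 genes did. Nqo1 and Tiparp read higher in EGFP-high cells without overlap. Neither was called once array sets were fitted (limma adjusted p = 0.787 for Nqo1 and 0.876 for Tiparp). The 95% limits of that fit lay above 0 for Nqo1 (0.22 to 1.18) and spanned 0 for Tiparp (−0.17 to 0.75). Cyp1a1, Cyp1a2 and Ahrr differed by at most 1.16-fold. All their readings lay below the array medians, so a fall in these genes could be missed. The readings of the receptor gene Ahr and of its main partner Arnt overlapped between the populations. Arnt2 had a negative mean difference that came from 1 of 2 array sets. Beyond the 9 genes, 2 of 16 further measured targets, Ereg and Cd36, were at least 1.5-fold lower in EGFP-high cells and 1, Socs2, was higher. The shares over all genes were 2.7% and 2.19%.

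Cyp1b1 read 2.44, 2.88 and 3.32 in the 3 EGFP-high arrays, against 5.04, 4.76 and 4.003 in the 3 EGFP-low arrays, on the log2 scale. The highest EGFP-high array lay below the lowest EGFP-low array. The means were 2.88 ± 0.44 in EGFP-high and 4.60 ± 0.54 in EGFP-low cells (SD, n = 3 each), a difference of −1.73 or 3.31-fold. Within the inferred array sets it was −2.61 for high 1 minus low 1 and −1.07 for high 3 against the average of low 2 and low 3. The 3 EGFP-high readings lay below the median of all probe sets on those arrays (3.76 to 3.79), where RNA can be too scarce to register, and the 3 EGFP-low readings lay above theirs (3.81 to 3.85). In the authors' deposited table Cyp1b1 had a ratio of high over low of 0.347, or a signed fold of −2.88. Its difference in the value table ran from −2.03 to −1.51 when any 1 array was left out, a range that the column relations partly fix.

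The 2 other CYP1 genes did not show this. Cyp1a1, the receptor's most inducible target in many tissues, read 3.35, 3.31 and 3.27 in EGFP-high arrays and 3.15, 3.32 and 3.10 in EGFP-low arrays. Cyp1a2, best known from liver, read 3.42, 3.46 and 3.51 in EGFP-high arrays and 3.29, 3.57 and 2.88 in EGFP-low arrays. The populations overlapped for both genes and all 12 readings lay below the array medians. The differences were 0.12 for Cyp1a1 (95% limits with the array-set term −0.35 to 0.59) and 0.21 for Cyp1a2 (−0.37 to 0.80).

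Ahrr, which encodes a repressor that competes with the receptor for ARNT and is itself induced by the receptor, lay below the array medians throughout. It read 2.23, 2.24 and 2.24 in EGFP-high arrays and 2.17, 2.26 and 2.08 in EGFP-low arrays, with a difference of 0.06 (−0.40 to 0.53). The 2 populations overlapped.

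Tiparp encodes an ADP-ribosyltransferase that is induced by the receptor and restrains it. It read 8.43, 8.44 and 8.45 in EGFP-high arrays and 8.16, 8.20 and 8.09 in EGFP-low arrays, without overlap. The difference was 0.29 (−0.17 to 0.75), with a limma adjusted p of 0.057 for group alone and 0.876 with array sets. Fits with group alone passed the threshold under median centring, an intensity trend, removal of dim genes or averaging of its probe sets, and without low 2 (limma adjusted p from 0.035 to 0.047), and quantile normalization brought the difference to 0.16 (0.187). Its dimmer probe set read 8.04, 8.04 and 8.05 in EGFP-high arrays against 7.50, 7.17 and 7.82 in EGFP-low arrays, a difference of 0.55 (−0.14 to 1.23, fitted over all probe sets). This second probe set stood in the authors' deposited table with a ratio of high over low of 1.59, and the brighter one was not among the 1134 probe sets of that table.

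Nqo1 encodes a quinone reductase induced both by the receptor and by NRF2, the regulator of the oxidative stress response. Its readings were 4.18, 4.26 and 4.35 in EGFP-high arrays and 3.65, 3.42 and 3.62 in EGFP-low arrays. All EGFP-high arrays lay above all EGFP-low arrays. The difference was 0.70 (0.22 to 1.18) or 1.62-fold, with 0.53 and 0.83 within the 2 array sets. Its limma adjusted p was 0.021 for group alone and 0.787 once the array-set term was added. With group alone the call was also lost without high 1, high 2, high 3 or low 1, with limma adjusted p from 0.105 to 0.203. The authors' deposited table of 1.5-fold changes did not list the Nqo1 probe set.

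**Figure D1:**
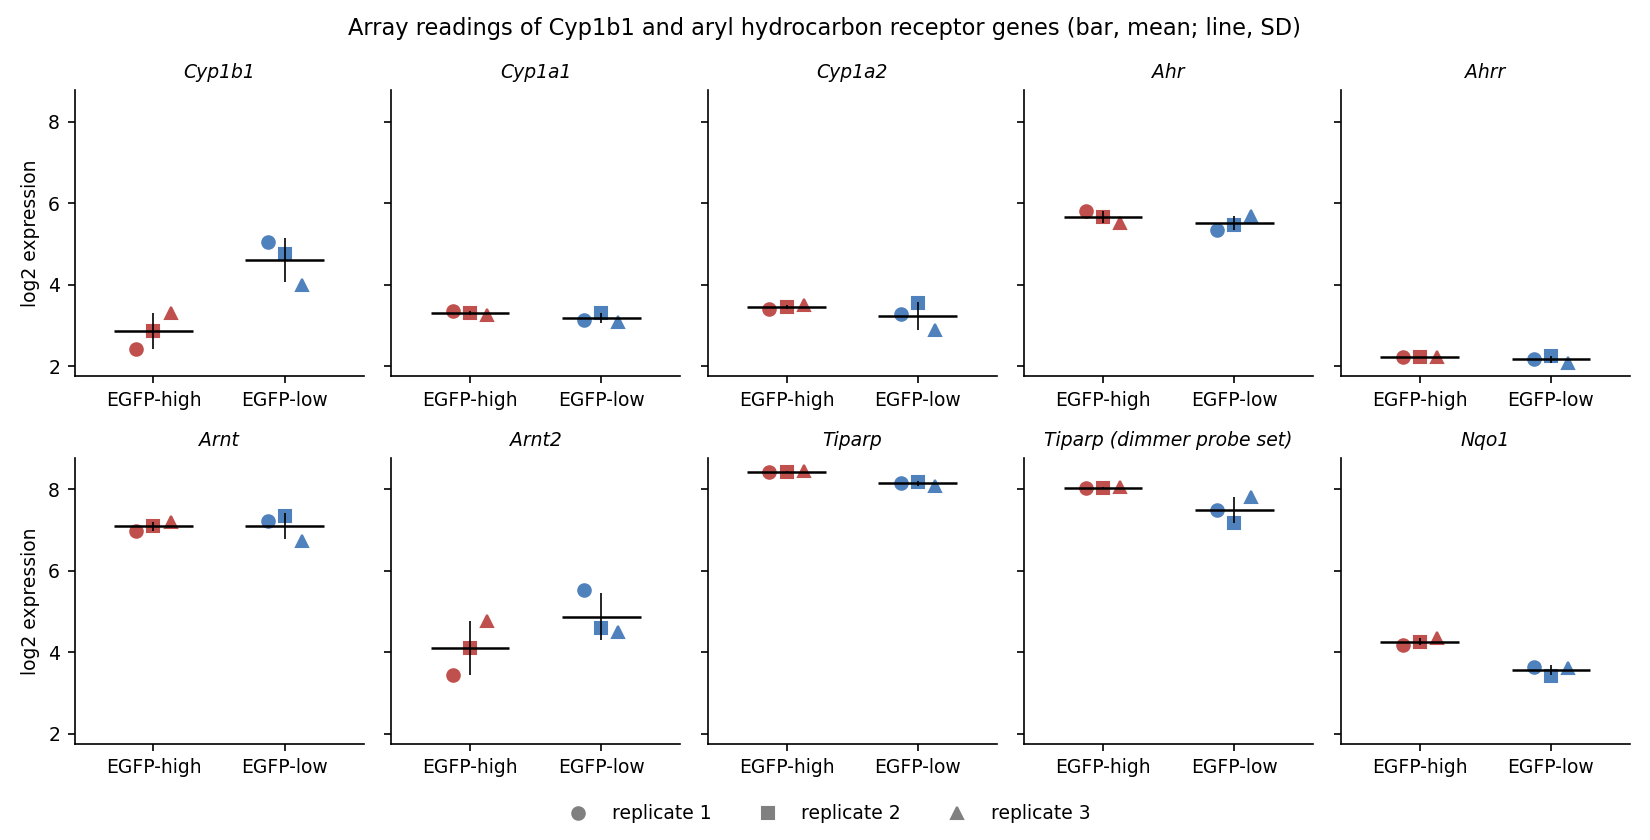
Log2 expression (vertical axis) of the 9 genes on each array, EGFP-high (red) and EGFP-low (blue), with replicates 1 to 3 as circle, square and triangle, the mean as a bar and the SD as a line; Tiparp has 2 probe sets. Cyp1b1 lies at 2.44 to 3.32 in EGFP-high and at 4.003 to 5.04 in EGFP-low arrays, while Cyp1a1, Cyp1a2 and Ahrr overlap.

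Ahr itself read 5.83, 5.67 and 5.52 in EGFP-high arrays and 5.36, 5.48 and 5.70 in EGFP-low arrays. The ranges overlapped, and the difference was 0.16 (−0.36 to 0.68), with 0.47 and −0.07 within the 2 array sets. Arnt, the obligate partner of the receptor and also of the hypoxia-inducible factors, read 6.98, 7.09 and 7.21 in EGFP-high arrays and 7.22, 7.35 and 6.74 in EGFP-low arrays. Its difference was −0.01 (−0.59 to 0.58), and it turned to 0.056 when each array was centred on its median.

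Arnt2, a close relative of Arnt best known from the nervous system, had the widest spread of the 9 genes within each population, with an SD of 0.66 in EGFP-high and 0.58 in EGFP-low arrays. It read 3.45, 4.11 and 4.77 in EGFP-high arrays and 5.54, 4.60 and 4.49 in EGFP-low arrays. High 3 lay above low 2 and low 3, so the populations overlapped. The mean difference was −0.77 (−1.82 to 0.29), with −2.09 in the first array set and 0.22 in the second. The authors' deposited table gave a ratio of high over low of 0.539 for Arnt2.

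Among the 9 genes, 3 differed by at least 1.5-fold, where 4.89% of all genes did. Cyp1b1 and Arnt2 were lower in EGFP-high cells (2.7% of all genes) and Nqo1 was higher (2.19%), and the gene next below that threshold was Tiparp at 1.22-fold. For 3 of the 9 genes, Cyp1b1, Tiparp and Nqo1, the readings of the populations did not overlap, beside 33.2% of all genes. With group alone limma called 2 of the 9, beside 6.67% of all genes, and with the array-set term 0 of the 9. The 2 were Nqo1 and Cyp1b1, whose call is no test because it was picked on this contrast. At an unadjusted p under 0.05 the fit with the array-set term had 2 of the 9, beside 5.92% of all genes. Nothing is read from these counts, since the choice of Cyp1b1 used the same contrast. For the other 8 genes limma adjusted p ran from 0.021 to 0.989 for group alone, and from 0.787 to 0.998 when array sets were fitted. All 5 other targets had differences above 0, as did 53.8% of all genes, and they kept that sign under median centring, quantile normalization and when any 1 array was left out. These checks are not independent. Median centring raised every difference, leaving out high 2 changed none, and leaving out high 1 or low 1 gave matching values, as the column relations require.

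**Figure D2:**
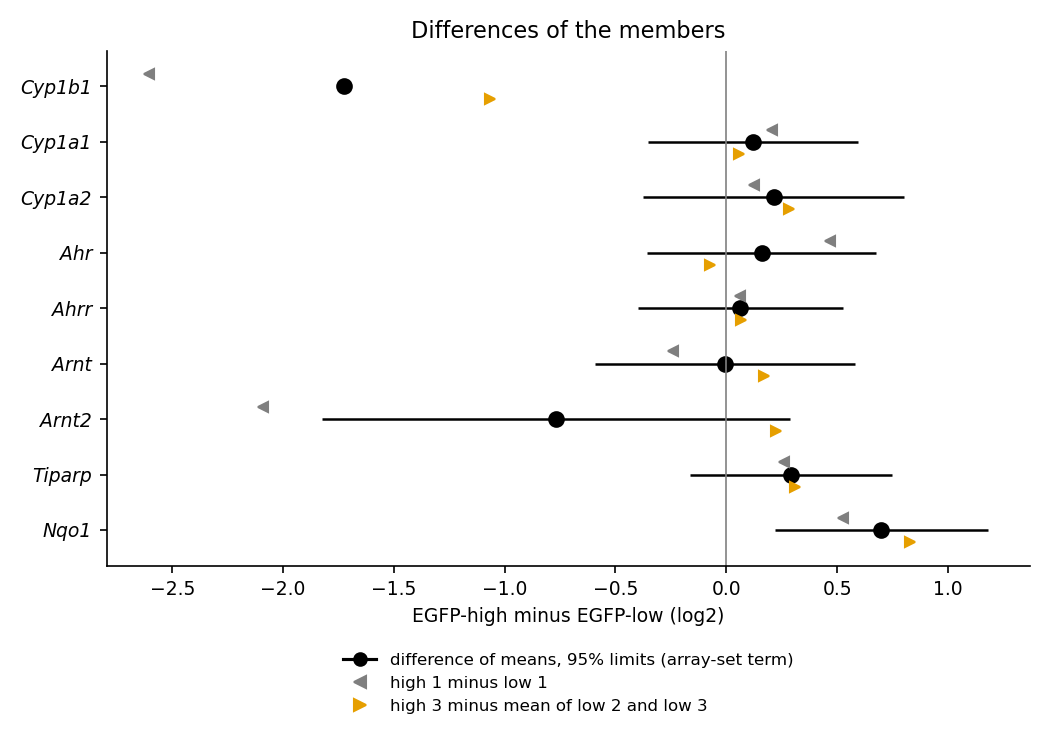
Difference of EGFP-high minus EGFP-low (log2, horizontal axis) for each gene, as the difference of means with 95% limits that include the array-set term (black; no limits for Cyp1b1, which was chosen on this value) and as the contrast in each array set (grey and orange). Cyp1b1 lies at −1.73 and Nqo1 at 0.70, and the 2 contrasts of Arnt2 stand on either side of 0, at −2.09 and 0.22.

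Other genes of the pathway were described from 7 lists and called by the same fits. Of the 94 different genes measured in them, limma called 0 with the array-set term, and 9 were at an unadjusted p under 0.05, beside 5.92% of all genes. With group alone it called 9, beside 6.67% of all genes (3.9% higher and 2.77% lower), and 39 were at an unadjusted p under 0.05, beside 26.8% of all genes. By list the latter were 8 of 16 further targets, 9 of 17 NRF2 genes and 8 of 12 genes of P450 electron supply and haem synthesis. They were 6 of 14 estrogen and catechol genes, 4 of 13 chaperones and coactivators, 3 of 10 tryptophan genes and 2 of 14 PAS-domain relatives. A gene in 2 lists counts in both. Of 16 measured targets or reported targets of the receptor beyond the 9 genes (of 20 listed), 7 had differences above 0 and 9 below, with a median of −0.08 beside 0.025 over all genes. With group alone 1 of the 16 was called lower, Cd36, a fatty acid and lipoprotein receptor also expressed by macrophages, at −0.94 (−1.47 to −0.42). The epidermal growth factor family ligand Ereg averaged 3.52 in EGFP-high and 4.60 in EGFP-low cells, a difference of −1.08 (−1.95 to −0.21). Socs2, a suppressor of cytokine signalling, went the other way at 0.73 (0.08 to 1.38).

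Of 13 measured chaperones and coactivators (16 listed), 10 were above 0, with a median of 0.07 and 0 called by limma with group alone (4 of 13 at an unadjusted p under 0.05, beside the 26.8% of all genes). Hsp90aa1, a chaperone of the unliganded receptor, differed by 0.32 (−0.15 to 0.79). Ncoa2, a nuclear receptor coactivator, differed by 0.19 (−0.27 to 0.64), and Ncoa7, another coactivator of nuclear receptors, by −0.60 (−1.17 to −0.04). Among 14 measured PAS-domain relatives (15 listed) the median was 0.03, and 1 was called lower with group alone. This was Epas1, which encodes the hypoxia-inducible factor HIF-2α and pairs with ARNT, at −0.55 (−1.02 to −0.08). Npas3, a neuronal PAS-domain factor, differed by 0.54 (0.02 to 1.06) and Hif3a by 0.34 (−0.31 to 0.99).

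NRF2 shares Nqo1 as a target with the receptor. Of 17 measured NRF2 targets and regulators other than Nqo1 (20 listed), 7 were above 0 and 10 below, with a median of −0.02. Gclc, the catalytic subunit of the enzyme that starts glutathione synthesis, was the 1 gene called with group alone, lower at −0.53 (−0.99 to −0.08). Me1, a malic enzyme that makes NADPH, differed by −0.68 (−1.42 to 0.06) and Osgin1 by −0.46 (−1.01 to 0.08).

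Enzymes that make or clear tryptophan-derived ligands had a median difference of 0.00 over 10 measured genes (11 listed), and 1 was called lower with group alone. Kynu, which cleaves kynurenine, averaged 2.11 in EGFP-high and 2.42 in EGFP-low cells (−0.31, −0.76 to 0.15). Kmo, a kynurenine hydroxylase, differed by −0.41 (−0.90 to 0.08) and Haao, the dioxygenase later in that pathway, by 0.33 (−0.18 to 0.85).

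Genes of estrogen and catechol metabolism had a median of 0.23 over 14 measured genes (17 listed), 9 of them above 0. With group alone 3 of the 14 were called higher, beside 3.9% of all genes. These 3 were Gstp1, a glutathione transferase, at 0.49 (0.01 to 0.97), Hsd17b2, which oxidises estradiol to estrone, at 0.45 (−0.02 to 0.91), and the estrogen receptor Esr1 at 0.43 (−0.04 to 0.89). Of 12 measured genes of P450 electron supply and haem synthesis (15 listed), 9 were above 0 with a median of 0.18. With group alone 1 was called lower, Alas1, the first enzyme of haem synthesis, at −0.34 (−0.79 to 0.12). The 1 called higher was Pgrmc1, a haem-binding membrane protein, at 0.32 (−0.14 to 0.77), which was named after its values were seen. Fdx1, the ferredoxin that serves mitochondrial P450 enzymes such as CYP11A1, differed by −1.10 (−1.92 to −0.28), and Ppox, a late enzyme of haem synthesis, by 0.40 (−0.17 to 0.97).

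**Figure D3:**
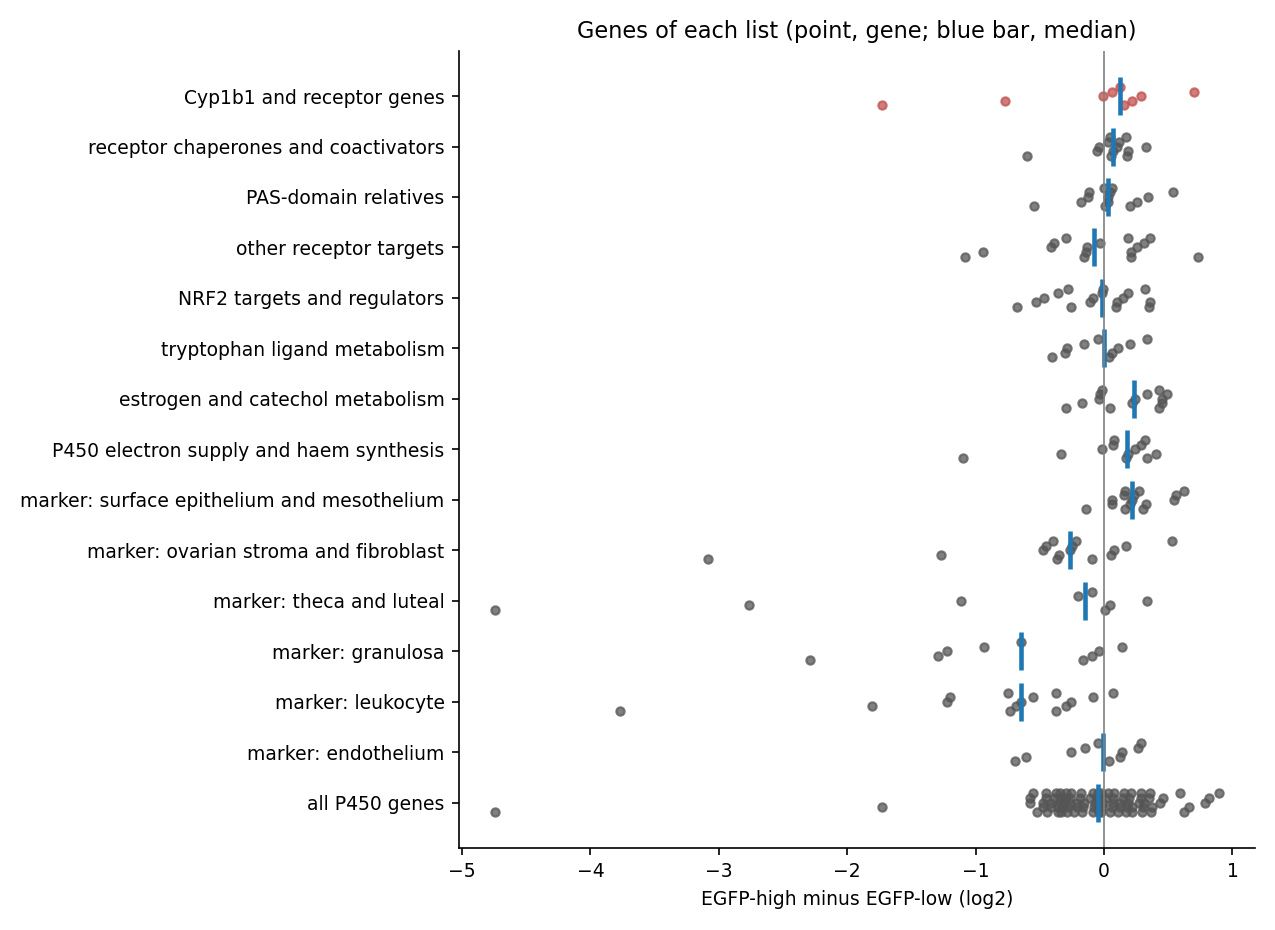
Difference of EGFP-high minus EGFP-low (log2, horizontal axis) of each measured gene (point) in each list, with the list's median as a blue bar and Cyp1b1 and the receptor genes in red. The medians of the 7 pathway lists lie between −0.08 and 0.23, and those of granulosa and leukocyte markers at −0.65.

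Across the 90 measured genes with a cytochrome P450 symbol, 37 had differences above 0 and 53 below, with a median of −0.04. Cyp1b1 was second lowest, after Cyp11a1, the cholesterol side-chain cleavage enzyme of steroid synthesis. Cyp11a1 averaged 4.02 in EGFP-high and 8.76 in EGFP-low cells with a difference of −4.74 (limits −5.49 to −3.99), and it was the 1 gene called with array sets fitted (limma adjusted p = 0.014). Its second, dimmer probe set had a difference of −0.17, and fitted over all probe sets the brighter one had a limma adjusted p of 0.389 with array sets. The next lowest P450 gene, Cyp3a57, differed by only −0.57 (−1.27 to 0.13). At the other end stood Cyp4f16 at 0.89 (0.13 to 1.65), Cyp4f14 at 0.81 (−0.25 to 1.88) and Cyp2j8 at 0.79 (0.13 to 1.45).

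**Figure D4:**
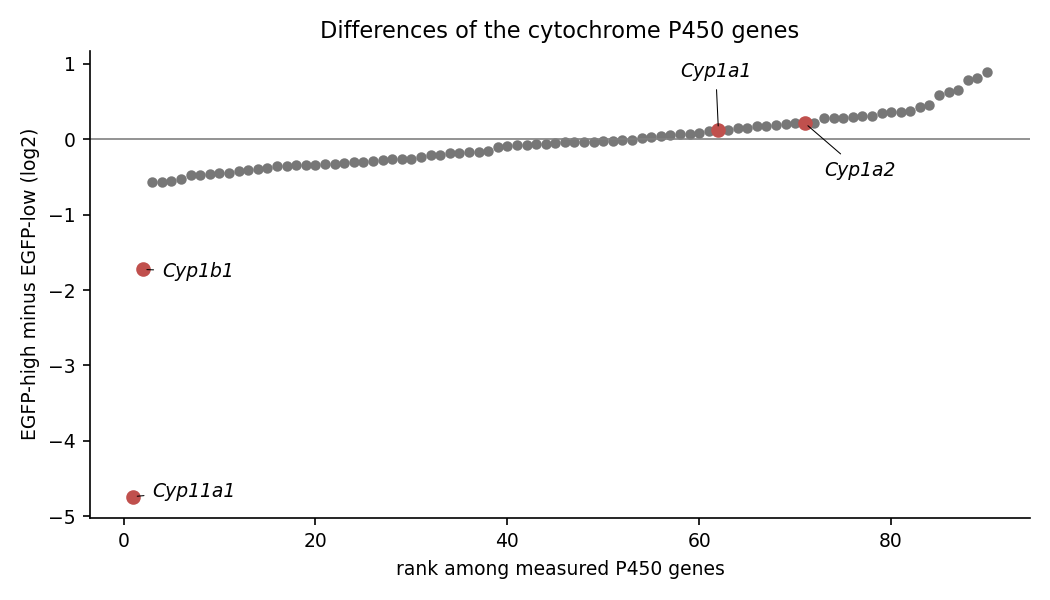
Difference of EGFP-high minus EGFP-low (log2, vertical axis) of the 90 measured cytochrome P450 genes, ordered from lowest to highest (horizontal axis). Cyp11a1 at −4.74 and Cyp1b1 at −1.73 stand below all others, and Cyp1a1 (0.12) and Cyp1a2 (0.21) lie in the upper part of the order.

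The genes whose 6 readings, each taken from the gene's own mean, lay nearest to those of Cyp1b1 were Aif1l, Ephx2, Vldlr, Ltbp1, Pf4 and Bcat1. Their root-mean-square distances from Cyp1b1 over the 6 arrays ran from 0.18 to 0.21 on the log2 scale. Ephx2, the soluble epoxide hydrolase, averaged 5.38 in EGFP-high and 6.88 in EGFP-low cells. Vldlr, a lipoprotein receptor, averaged 3.05 in EGFP-high and 4.64 in EGFP-low cells. Ltbp1, which binds latent TGF-beta in the matrix, differed by −1.99, the platelet and macrophage chemokine Pf4 by −1.66, the amino acid transaminase Bcat1 by −1.57, and Aif1l, an actin-binding protein, by −1.40. These genes were found by their likeness to Cyp1b1, so their differences are a description.

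Markers of leukocytes, granulosa cells, stroma and theca or luteal cells had negative medians beside the difference of Cyp1b1. These array values have no zero, so no marker can be called absent. The 15 measured leukocyte markers had a median of −0.65, with 14 below 0 and a summed linear signal of 180.8 to 198.9 in EGFP-high arrays against 266.7 to 650.5 in EGFP-low arrays. With group alone limma called 6 of the 15 lower and 0 higher, beside 2.77% and 3.9% of all genes. Lyz2, the lysozyme of macrophages, averaged 2.98 in EGFP-high and 6.75 in EGFP-low cells, while Ptprc, the pan-leukocyte marker, averaged 2.06 in EGFP-high and 2.43 in EGFP-low cells. The 9 granulosa markers had a median of −0.65, with 8 below 0 and summed signals of 709.0 to 732.0 in EGFP-high and 863.2 to 997.5 in EGFP-low arrays. Of these 9, limma called 0 with group alone, while 5 were at least 1.5-fold lower in EGFP-high cells, beside 2.7% of all genes. At an unadjusted p under 0.05 the fit with the array-set term had 5 of the 9, beside 5.92% of all genes. Nr5a2 differed by −2.29 (−3.87 to −0.72), Fst by −1.29 (−2.12 to −0.46) and Fshr by −1.22 (−2.07 to −0.37). The 1 other way lay above 0.

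The 15 stroma and fibroblast markers had a median of −0.26, with 11 below 0 and summed signals of 741.6 to 745.4 in EGFP-high and 846.6 to 1127.8 in EGFP-low arrays. Col1a2, a chain of type I collagen, averaged 2.81 in EGFP-high and 5.89 in EGFP-low cells. Cd34, also found on endothelium, differed by −1.27 (−1.76 to −0.79), and the fibroblast surface marker Thy1 went the other way at 0.53 (0.03 to 1.03). With group alone limma called 3 of the 15 lower and 1 higher, Thy1, beside 2.77% and 3.9% of all genes. The 8 measured theca and luteal markers had a median of −0.15, with 5 below 0 and 3 above. Their summed signals were 848.3 to 929.4 in EGFP-high and 1173.7 to 1476.3 in EGFP-low arrays. These sums include Cyp11a1, which averaged 4.02 in EGFP-high and 8.76 in EGFP-low cells, and no sum without that gene was made. The second, dimmer Cyp11a1 probe set, not in the sums, differed by −0.17. Cyp11a1 and Hsd3b1 (−2.76, limits −3.84 to −1.69) were the lowest of the 8. With group alone limma called these 2 lower and 1 higher, beside the same shares of all genes. The 1 higher was Star, which carries cholesterol into mitochondria, at 0.33 (−0.12 to 0.79). Star was named after its values were seen. The 10 endothelial markers had a median of −0.01, 5 above 0 and 5 below, with summed signals of 314.2 to 347.1 in EGFP-high and 302.0 to 328.8 in EGFP-low arrays. With group alone limma called 0 of the 10, and 5 were at an unadjusted p under 0.05, beside 26.8% of all genes. At least 1.5-fold lower were 2, beside 2.7% of all genes, Cdh5 at −0.69 (−1.43 to 0.05) and Emcn at −0.61 (−1.20 to −0.02). Flt1 differed by 0.29 (−0.19 to 0.77). Surface epithelium markers had a median of 0.22, 14 of 15 above 0. With group alone 3 of these 15 were called higher, beside 3.9% of all genes. The part of these cell types in the Cyp1b1 difference was not tested, and in sorted bulk samples fewer cells of a type and less RNA per cell cannot be told apart.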

How the data were processed

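Transcripts of sorted ovarian surface epithelium cells were measured on 6 Affymetrix Mouse Gene ST 2.0 arrays after NuGEN pico-scale amplification. The deposited values are log2 expression of 41345 probe sets. Per the submitters' processing notes they were made with RMA in Affymetrix Expression Console, for which no version is recorded; build and annotation are not given in the sources used here. A comparison table deposited by the authors lists, for 1134 probe sets, a ratio and a signed fold score of high over low, per the file headers. No detection calls were used, and readings near the floor compress differences. The number of arrays limits the precision. There were 0 columns of values without a sample.

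Gene names came from the platform annotation (23521 with 1 symbol, 1820 with several, 16004 unlisted), and the brightest probe set was taken for each of 1082 genes with more than 1. High minus low was fitted over 22180 genes with limma 3.58.1 in R 4.3.3 (two-sided, Benjamini-Hochberg adjustment, threshold 0.05), with group alone (4 residual degrees of freedom) and with array sets inferred from the column relations (2). Of 201 partitions of the arrays, 1 gave both relations, whose deviations had SDs of 4.75e-06 and 6.21e-06. Limits of 95% are from the array-set fit and are not adjusted for the number of genes. Fits were run on simulated data with 6 independent columns. The columns here are related, so that run does not show how either fit performs on them. The genes and lists were chosen with earlier results of these data known. Named from each list were up to 3 genes with the smallest p in the array-set fit, the 3 lowest and 3 highest P450 genes, and the 6 genes nearest to Cyp1b1. Ptprc was named after its values were seen. An exact permutation test of 3 against 3 arrays cannot give a p below 0.10 and was not used.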

Additional observations from a re-analysis of the deposited data

How the results depend on the processing

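Cyp1b1 had a negative difference in every alternative that kept it, −2.03 to −1.51 when 1 array was left out and −1.53 in the authors' deposited table. No alternative moved it by more than its spread between arrays. This describes the value on which it was chosen, and the column relations fix part of it. Leaving out high 2 returned −1.73, and leaving out high 1 or low 1 gave −1.51 each time. The contrasts within the array sets, −2.61 and −1.07, lay farther apart. The number of genes called by limma with group alone, 1479, depended on the model: 1 with the array-set term, 4 with the replicate block, 906 with quantile normalization, 2583 without low replicate 2, 2326 without low replicate 3, and 0 without any 1 of the other arrays. Of the 9 genes, 2 were called with group alone, 0 with the array-set term, 0 with the replicate block, 1 with quantile normalization (Nqo1), 1 of the 4 genes left when dim genes were removed, a filter that Cyp1b1, Cyp1a1, Cyp1a2, Ahrr and Nqo1 did not pass (Tiparp, limma adjusted p = 0.046) and 0 to 2 when 1 array was left out. Median centring called 3. Cyp1b1 was picked on this contrast, so nothing is read from counts that include it. Tiparp was also called with median centring (0.039), with an intensity trend (0.035), with the mean of its probe sets (0.047, difference 0.42) and without low replicate 2 (0.044). The genes at 1.5-fold or more numbered 3, and 1 with dim genes removed and 2 to 3 with 1 array left out. Arnt turned to 0.056 with median centring and ran from −0.19 to 0.12 with 1 array left out, the one sign among the 9 genes that changed. Whether the replicate numbers pair arrays across populations could not be read from the values, because the column relations themselves fix how same-numbered arrays deviate together, and the replicate block leaves the differences as they are. Cyp1a1, Cyp1a2, Ahrr and the EGFP-high readings of Cyp1b1 are limited by dimness.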
